A study of Homo sapiens with 8 samples.

Results

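The genes described here are 43 genes of homologous recombination, the Fanconi anemia pathway and the checkpoint that watches over DNA replication, with a few genes of end joining, base excision and mismatch repair. They were chosen by gene symbol, as a list written for this work with earlier results of these data known, and all 43 were found among the 26364 symbols of the expression table. RNA-seq was done on MV4-11 cells, a human acute myeloid leukemia (AML) line that carries FLT3-ITD and MLL-AF4. The 4 groups of 2 libraries each were vehicle (DMSO, the control), TCP at 5 µM, palbociclib at 0.5 µM, and both molecules at these doses (the combination). TCP, tranylcypromine, inhibits the histone demethylase LSD1, and palbociclib inhibits the kinases CDK4 and CDK6. The labels and the study's account of this RNA-seq experiment give 4 days, for the single molecules as for the combination, while its general methods for in vitro treatments give 1 day of the CDK6 inhibitor and then 3 days with both inhibitors. All groups come from this 1 cell line, and nothing says whether the replicates were separate cultures, so p-values measure the spread between these libraries, which may be technical.

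Values are TPM, a level per gene length in which every library adds up to a fixed total. The depth of the libraries is unknown, since TPM keep no read totals. The myeloid blood cell markers PTPRC, SPI1 and CD33 were present in all 8 libraries, with CD33 between 103 and 141 TPM and SPI1 between 208 and 497 TPM. Other myeloid markers were uneven in control. MPO was low there, at 3.37 and 3.42 TPM, and CD14 was at 0.943 and 2.07 TPM, while LYZ was at 278 and 770 TPM. The study's methods place the cells on HS-5 stromal cells, and 1 library stood apart in stromal markers. COL1A1, a fibrillar collagen, was at 1.32 and 22.2 TPM in the palbociclib libraries and at most 3.78 TPM in the other 6. The summed TPM of 14 stromal markers was 132 to 139 in control and TCP libraries, 186 and 285 with palbociclib, and 167 and 178 with the combination, while POSTN was listed at 0 in all 8 libraries. IGFBP7 carried most of the sum in every library but palbociclib replicate 2, with 109 and 103 TPM in control and 154 and 137 TPM with palbociclib. The median changes of the list that rest on palbociclib replicate 2 are therefore also given without it. Values of single genes are mostly given with it.

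Homologous recombination repairs a broken chromosome from its sister copy: the end is cut back to a single strand, and proteins loaded on that strand with the help of BRCA2 search for the matching sequence. The Fanconi pathway acts on crosslinks between the strands, where a core complex attaches ubiquitin to FANCD2 and FANCI and so calls nucleases and recombination proteins to the stalled fork. The kinases ATM and ATR sense breaks and stalled forks and act through CHEK2 and CHEK1 to hold the cell cycle. Much of this machinery serves DNA replication, and E2F factors, which the RB proteins hold back until CDK4 and CDK6 phosphorylate RB, activate many of its genes as cells enter S phase.

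RefSeq promoter windows of GRCh38.p14, 250 bases before to 50 after the start site, were given for 35 of the 43 genes. Since these genes moved together, the windows were searched on both strands for the E2F forms TTTCCCGC, TTTGGCGC, TTTCGCGC and TTTGCCGC, the CHR element TTTGAA of G2/M genes, and the CCAAT box. An E2F form stood in 8 of the 35 windows (22.9%), against 3.31% of all 35116 windows. The CHR element stood in 6 of the 35 (17.1%, against 15.2% of all windows), and a CCAAT box in 17 (48.6%, against 34.6%). All windows were not limited to the genes tested here, so these shares do not compare matched sets. For BRCA1, counted among the 35, the first transcribed bases of the window were not found in its annotated transcripts. The 9 E2F sites of these genes are shown because this was the motif with the widest gap between these windows and all windows, each as 30 bases read on the gene's strand with the E2F form in capitals.
XRCC2, chr7:152676102-152676131, minus strand: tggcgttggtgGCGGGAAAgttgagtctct
FANCA, chr16:89816801-89816830, minus strand: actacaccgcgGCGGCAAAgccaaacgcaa
FANCC, chr9:95317863-95317892, minus strand: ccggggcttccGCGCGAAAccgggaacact
FANCC, chr9:95317737-95317766, minus strand: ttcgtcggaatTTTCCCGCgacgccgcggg
FANCD2, chr3:10026424-10026453, plus strand: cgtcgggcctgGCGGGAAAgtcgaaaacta
EXO1, chr1:241848197-241848226, plus strand: aaaggtcagccTTTCGCGCgctgtgtaggc
CLSPN, chr1:35769965-35769994, minus strand: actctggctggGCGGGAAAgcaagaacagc
XRCC6, chr22:41621315-41621344, plus strand: tgtccaagttggtcgcttccctGCGCCAAA
MSH6, chr2:47783137-47783166, plus strand: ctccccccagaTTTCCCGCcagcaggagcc
FANCC holds 2 of these forms, at positions -172 and -46 from its start site. The forms in XRCC2, EXO1, MSH6 and XRCC6 begin after the start site, and those in FANCD2 and CLSPN span it. A match is a description of the letters and not of a bound factor. The 8 genes with an E2F form had median log2 fold changes from control of -0.77 (palbociclib) and -1.23 (combination), and the 27 with a window but no such form had -0.75 and -1.13.

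The 160 bases before the start site are shown for 3 genes with large decreases, CHEK1, XRCC2 and UBE2T, and for NEIL3, whose values moved in another way (chosen after its values were seen). Capitals mark a CCAAT box or a CHR element on either strand.
CHEK1, chr11:125626069-125626228, plus strand: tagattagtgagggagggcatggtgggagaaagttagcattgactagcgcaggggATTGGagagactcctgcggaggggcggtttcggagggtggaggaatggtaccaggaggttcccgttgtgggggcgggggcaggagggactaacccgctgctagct
XRCC2, chr7:152676142-152676301, minus strand: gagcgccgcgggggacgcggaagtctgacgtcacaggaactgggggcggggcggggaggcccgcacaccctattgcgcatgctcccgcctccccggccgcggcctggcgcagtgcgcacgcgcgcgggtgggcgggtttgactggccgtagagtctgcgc
UBE2T, chr1:202341937-202342096, minus strand: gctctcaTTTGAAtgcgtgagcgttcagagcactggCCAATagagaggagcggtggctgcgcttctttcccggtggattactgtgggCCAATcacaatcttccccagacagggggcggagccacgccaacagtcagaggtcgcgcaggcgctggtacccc
NEIL3, chr4:177309714-177309873, plus strand: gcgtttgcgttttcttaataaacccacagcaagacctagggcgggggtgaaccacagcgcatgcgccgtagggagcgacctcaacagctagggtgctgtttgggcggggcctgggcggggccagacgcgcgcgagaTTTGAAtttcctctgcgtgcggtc
UBE2T has a CHR element and a pair of CCAAT boxes in this stretch, CHEK1 has 1 CCAAT box, NEIL3 has a CHR element at position -24, and XRCC2 has none of the letters searched. The gene with the largest decrease, CHEK1, thus held no E2F form in its window, which says only that these letters are not there.

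Under palbociclib and the combination, nearly the whole list was lower than in control. Palbociclib lowered 39 of the 43 genes and raised 1, at an adjusted p below 0.05 in either direction (limma on log2(TPM + 1), Benjamini-Hochberg adjustment over 14151 genes). Among all genes tested, 30.2% were lower and 14.8% higher by the same test. The combination lowered 41 of 43, against 37.6% of all genes, and the fold change of all 43 was below 0. The 43 genes had a median of -0.74 on the log2 scale with palbociclib and of -1.11 with the combination, beside -0.16 and -0.22 over all genes tested. Palbociclib and the combination were both compared with the same control libraries. In bulk RNA, fewer cells that make a transcript and less of it per cell cannot be told apart.

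**Figure D1:**
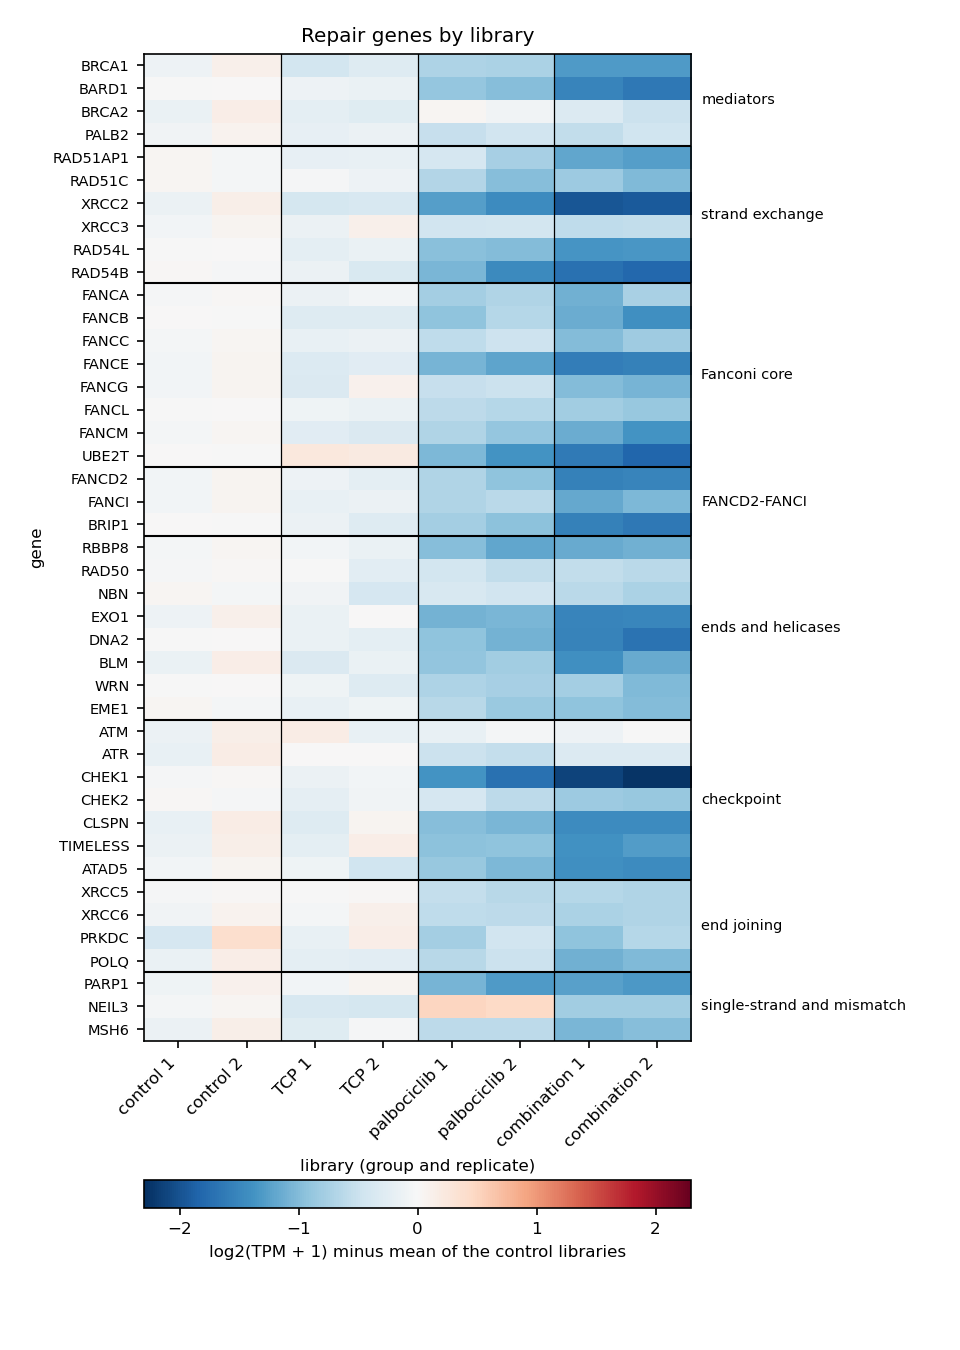
Change of each of the 43 genes (rows, grouped by role) in each of the 8 libraries (columns), as log2(TPM + 1) minus the mean of the control libraries; blue is lower and red higher. Blue fills the palbociclib columns and deepens in the combination columns, down to -2.19 on average for CHEK1, while ATM stays pale and NEIL3 is red only with palbociclib alone.

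Larger changes were counted against the shared control, which does not compare the treatments with each other. At an adjusted p below 0.01 and a log2 change of 1 or more in size, here called DEG, palbociclib lowered 10 of the 43 genes (4.56% of all genes) and the combination 25 (7.82% of all genes). The 10 were CHEK1, CLSPN, DNA2, EXO1, FANCE, PARP1, RAD54B, RBBP8, UBE2T and XRCC2, and each of them was also DEG in the combination. Without palbociclib replicate 2 or without control replicate 2, fewer of the 43 genes passed or were DEG for palbociclib. Fewer of all genes passed as well. The median of the list was then -0.69 (-0.15 over all genes) and -0.70 (-0.16 over all genes). Of the 40 palbociclib calls, 32 held under every other setting of the test, and those of ATR, FANCC, FANCG, NBN, POLQ, RAD50, RAD51AP1 and XRCC3 were lost under 1 or more. Of the 41 combination calls, 37 held under every setting, and those of BRCA2, PALB2, PRKDC and XRCC3 were lost under 1 or more.

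Markers of dividing cells moved with the list. All 18 proliferation markers, among them MKI67 and the MCM helicase subunits, were lower with palbociclib (median log2 fold change -1.16) and with the combination (-1.64). Their summed TPM was 3718 and 4324 in control, 3440 and 4216 with TCP, 1881 and 1841 with palbociclib, and 1331 and 1436 with the combination. MKI67 was detected in every library, and the part of the cell cycle in the results below was not tested. Myeloid markers moved the other way, and their part was not tested either. All 6 of them rose with palbociclib and with the combination, and their summed TPM was 648 and 1169 in control, 1079 and 2104 with TCP, 17134 and 19726 with palbociclib, and 27602 and 29687 with the combination. LYZ, the lysozyme of phagocytes, carried most of that sum with palbociclib and with the combination. It was at 278 and 770 TPM in control, 16431 and 18984 with palbociclib and 26591 and 28617 with the combination. The smaller log2 fold changes in the combination ran from 0.33 (CD33) to 1.01 (SPI1), with MPO and PTPRC between. CD14, a monocyte receptor, was at 0.943 and 2.07 TPM in control and 374 and 359 with the combination.

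The 10 most abundant genes of each library took 9.12% to 9.67% of TPM in control and TCP and 13.96% to 15.8% in palbociclib and combination libraries, which lowers the TPM of other genes. When each library was instead scaled so that the median gene did not change, palbociclib lowered 34 of the 43 genes (19.5% of all genes) and the combination 37 (22.7% of all genes), and NEIL3 still rose with palbociclib. Of all genes past the test, 32.8% were higher and the rest lower with palbociclib, and 29.8% were higher with the combination; with that scaling these shares were 51.7% and 51.5%.

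**Figure D2:**
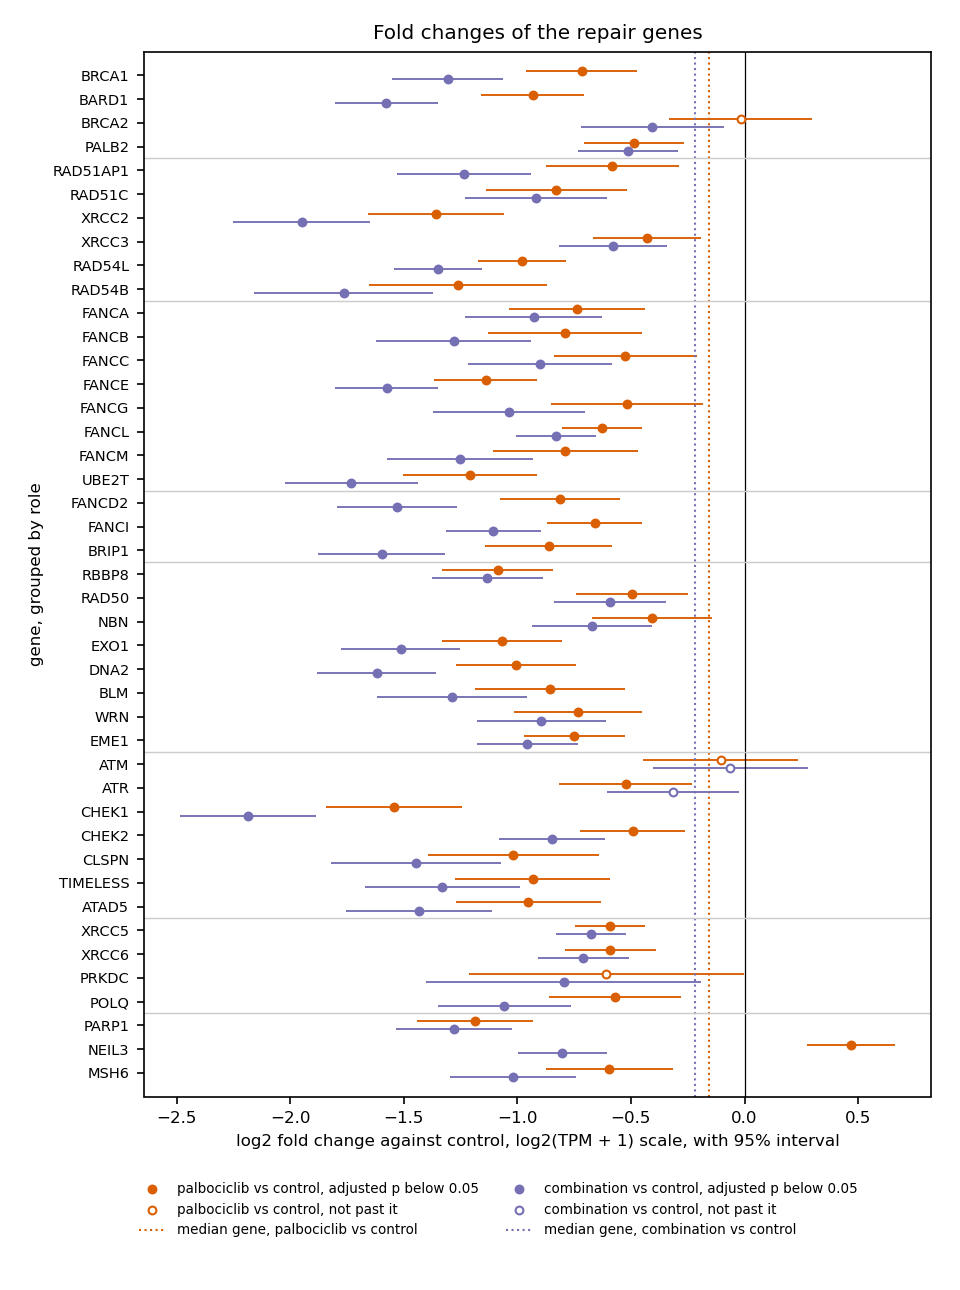
Log2 fold change against control of each of the 43 genes for palbociclib (orange) and the combination (purple), with 95% intervals; filled points passed an adjusted p of 0.05 and dotted lines mark the median of all genes tested, -0.16 and -0.22. All purple points lie left of 0, CHEK1 farthest at -2.19, and NEIL3 is the only orange point to the right, at 0.47.

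BRCA1, BARD1, PALB2 and BRCA2 form the chain that starts strand exchange at a resected end. BRCA1, a ubiquitin ligase at chr17:41196312-41322262 (GRCh37), was at 44.3 and 52.9 TPM in control, 36.1 and 39.5 with TCP, 29.3 and 28.9 with palbociclib and 18.96 and 18.99 with the combination. Each treated group lay below both control libraries, and the order of the groups had no overlap between neighbours. The log2 fold change of BRCA1 was -0.72 (SE 0.10, adjusted p = 0.00186) for palbociclib and -1.31 (SE 0.10, adjusted p = 0.000118) for the combination. BARD1, the obligate partner of BRCA1 in the ligase, was at 21.1 and 21.7 TPM in control, 19.7 and 19.2 with TCP, 11.2 and 10.3 with palbociclib and 6.84 and 6.19 with the combination. Its level in the combination was 30.4% of control, a log2 fold change of -1.58 (SE 0.10, adjusted p = 4.98e-05), after -0.93 (SE 0.10, adjusted p = 0.000519) with palbociclib alone. The groups stood in the same order as for BRCA1.

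PALB2, which joins BRCA1 to BRCA2, was at 26.9 and 30.02 TPM in control, 24.9 and 25.7 with TCP, 19.4 and 20.6 with palbociclib and 18.95 and 20.3 with the combination. Palbociclib and combination libraries overlapped, and both groups were below control, with log2 fold changes of -0.49 and -0.51 (adjusted p = 0.00564 and 0.00348). BRCA2, which acts on the resected strand, was at 12.8 and 15.9 TPM in control, 12.02 and 11.6 with TCP, 14.7 and 13.5 with palbociclib and 11.3 and 9.79 with the combination. The palbociclib libraries of BRCA2 lay inside the range of control, and the interval of their log2 difference was -0.33 to 0.30. Of the 3 treatments against control, the combination alone passed the test for BRCA2, at -0.41 (SE 0.13, adjusted p = 0.0365), and 9 of 16 other settings of the test, both other scalings among them, ended that call.

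Of the 6 genes of strand exchange, all were lower under both palbociclib and the combination. XRCC2 was at 20.4 and 25.1 TPM in control, 16.97 and 17.4 with TCP, 8.85 and 7.63 with palbociclib and 5.03 and 5.21 with the combination. That is 36.2% of control with palbociclib and 22.5% with the combination, or log2 fold changes of -1.36 (SE 0.13, adjusted p = 0.000377) and -1.95 (SE 0.13, adjusted p = 6.2e-05). RAD54B, a motor protein that helps the strand invade the sister copy, was at 10.3 and 9.91 TPM in control, 9.13 and 7.69 with TCP, 4.34 and 3.03 with palbociclib and 2.37 and 2.18 with the combination. Its log2 fold changes were -1.26 (SE 0.17, adjusted p = 0.00128) and -1.77 (SE 0.17, adjusted p = 0.000224), and its exons overlap those of FSBP on the same strand, so reads of the 2 genes may have been shared.

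RAD51AP1, which stimulates strand exchange, was at 61.2 and 57.7 TPM in control, 51.9 and 52.5 with TCP, 44.98 and 34.5 with palbociclib and 25.3 and 24.1 with the combination. The step from control was -0.58 (SE 0.12, adjusted p = 0.00876) with palbociclib and -1.23 (SE 0.12, adjusted p = 0.000288) with the combination. XRCC3, the partner of RAD51C, moved least of the 6, from 50.5 and 55.3 TPM in control to 38.7 and 39.2 with palbociclib and 34.9 and 35.3 with the combination, while TCP libraries, at 48.3 and 57.4 TPM, overlapped control. The log2 fold changes of XRCC3 were -0.43 (SE 0.10, adjusted p = 0.0124) and -0.58 (SE 0.10, adjusted p = 0.00291), and the first passed in 11 of 16 other settings. RAD51C and RAD54L were lower as well, at -0.92 and -1.35 on the log2 scale in the combination.

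All 8 genes of the Fanconi core group were lower under palbociclib and under the combination, with medians of -0.76 and -1.14. UBE2T, the E2 enzyme that hands ubiquitin to FANCD2, was the most abundant of them, at 121 and 118 TPM in control. It was at 141 and 139 TPM with TCP, 57.6 and 45.2 with palbociclib and 37.9 and 32.8 with the combination. UBE2T was thus the single gene of the 43 with both TCP libraries above both control libraries, against 12.4% of all genes. That difference, 0.23 (SE 0.12, adjusted p = 0.683), did not pass the test. Its log2 fold change was -1.21 (SE 0.12, adjusted p = 0.000516) with palbociclib and -1.73 (SE 0.12, adjusted p = 8.32e-05) with the combination.

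FANCE, the core subunit that binds FANCD2, was at 27.3 and 29.8 TPM in control, 22.8 and 23.7 with TCP, 13.1 and 11.8 with palbociclib and 8.81 and 9.01 with the combination. No neighbouring groups overlapped, and FANCE was at 31.2% of control in the combination, a log2 fold change of -1.58 (SE 0.10, adjusted p = 5.01e-05), after -1.14 (SE 0.10, adjusted p = 0.000271) with palbociclib. The other core genes were FANCA, FANCB, FANCC, FANCG, the ligase FANCL and the translocase FANCM, and their log2 fold changes in the combination ran from -1.28 for FANCB to -0.83 for FANCL.

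FANCD2 and FANCI are the pair that receives the ubiquitin, and BRIP1 is a helicase that binds BRCA1. FANCD2 was at 30.5 and 33.6 TPM in control, 29.6 and 27.4 with TCP, 19.5 and 16.3 with palbociclib and 10.3 and 10.6 with the combination. Its log2 fold changes were -0.81 (SE 0.11, adjusted p = 0.00153) and -1.53 (SE 0.11, adjusted p = 8.82e-05). FANCI was at 63.5 and 69.4 TPM in control, 58.7 and 60.1 with TCP, 40.7 and 42.7 with palbociclib and 28.6 and 32.05 with the combination. The log2 fold change of FANCI was -0.66 (SE 0.088, adjusted p = 0.00138) with palbociclib and -1.11 (SE 0.088, adjusted p = 0.000123) with the combination. For both genes of the pair the 4 groups stood in the same order, without overlap.

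BRIP1 was at 12.2 and 11.96 TPM in control, 10.97 and 9.71 with TCP, 6.59 and 5.81 with palbociclib and 3.46 and 3.18 with the combination. This is 51.3% and 27.5% of control, with log2 fold changes of -0.86 (SE 0.12, adjusted p = 0.00149) and -1.60 (SE 0.12, adjusted p = 9.27e-05). Together these 3 genes had the lowest median of the 8 roles in the combination, -1.53.

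The genes that process DNA ends and unwind intermediates were lower in 8 of 8 cases under each of palbociclib and the combination. DNA2, a nuclease and helicase of long-range resection, was at 17.2 and 17.4 TPM in control, 15.5 and 14.6 with TCP, 8.64 and 7.61 with palbociclib and 5.30 and 4.62 with the combination. Its log2 fold changes were -1.01 (SE 0.11, adjusted p = 0.000667) and -1.62 (SE 0.11, adjusted p = 7.1e-05). EXO1, the other long-range nuclease, was at 25.9 and 30.7 TPM in control, 25.2 and 28.3 with TCP, 12.8 and 13.002 with palbociclib and 9.14 and 9.27 with the combination, or -1.07 (SE 0.11, adjusted p = 0.00054) and -1.51 (SE 0.11, adjusted p = 9.13e-05). For DNA2 and EXO1 both combination libraries lay below both palbociclib libraries, against 37.2% of all genes. This difference passed the test for DNA2, and for EXO1, at -0.44 (SE 0.11, adjusted p = 0.089), it did not.

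RBBP8 encodes CtIP, which starts resection. It was at 33.9 and 35.7 TPM in control, 33.4 and 31.2 with TCP, 17.2 and 14.6 with palbociclib and 15.03 and 15.6 with the combination. Here the palbociclib and combination libraries overlapped, and the log2 fold changes from control were alike in size, -1.09 (SE 0.10, adjusted p = 0.000396) and -1.13 (SE 0.10, adjusted p = 0.000199). RAD50 and NBN, of the complex that first binds a break, were at the shallow end of this role, with -0.59 and -0.67 in the combination. The helicases BLM and WRN and the nuclease subunit EME1 lay between, at -1.29, -0.89 and -0.96.

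The checkpoint kinases split. CHEK1, the kinase through which ATR acts, at chr11:125495058-125546150 (GRCh37), had the largest decrease of the 43 genes under both treatments. It was at 41.1 and 43.1 TPM in control, 38.1 and 40.3 with TCP, 15.6 and 12.1 with palbociclib and 8.91 and 8.05 with the combination. Palbociclib left it at 32.9% of control, a log2 fold change of -1.55 (SE 0.13, adjusted p = 0.000248), and the combination at 20.1%, or -2.19 (SE 0.13, adjusted p = 4.03e-05). Exons of STT3A overlap CHEK1 on the same strand, so a part of its reads may be uncertain. ATR itself was at 13.9 and 17.7 TPM in control, 15.7 and 15.8 with TCP, 10.8 and 10.4 with palbociclib and 12.4 and 12.5 with the combination. Both combination libraries of ATR lay above both palbociclib libraries and below both control libraries. The decrease of ATR with palbociclib, -0.52 (SE 0.12, adjusted p = 0.0126), passed the test, and the value for the combination, -0.31 (SE 0.12, adjusted p = 0.0674), did not, with an adjusted p of 0.0495 when the replicate number was a block. The difference between combination and palbociclib for ATR, 0.21 (SE 0.12, adjusted p = 0.438), did not pass.

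ATM, the kinase that answers breaks, at chr11:108093771-108239829, was at 26.3 and 31.5 TPM in control, 32.7 and 25.4 with TCP, 25.6 and 27.9 with palbociclib and 26.4 and 28.7 with the combination. All 4 groups overlapped. The 95% interval of the log2 difference from control was -0.45 to 0.24 with palbociclib and -0.40 to 0.28 with the combination, and the sign of the latter changed between settings, from -0.19 to 0.17. CHEK2, the target kinase of ATM, was at 42.9 and 41.3 TPM in control, 36.6 and 39.7 with TCP, 32.03 and 27.4 with palbociclib and 23.3 and 22.6 with the combination. Its log2 fold changes were -0.49 (SE 0.10, adjusted p = 0.0067) and -0.85 (SE 0.10, adjusted p = 0.000505). The fork proteins CLSPN (Claspin, which brings ATR to CHEK1), TIMELESS and ATAD5 were lower in both treatments, with -1.45, -1.33 and -1.43 in the combination.

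**Figure D3:**
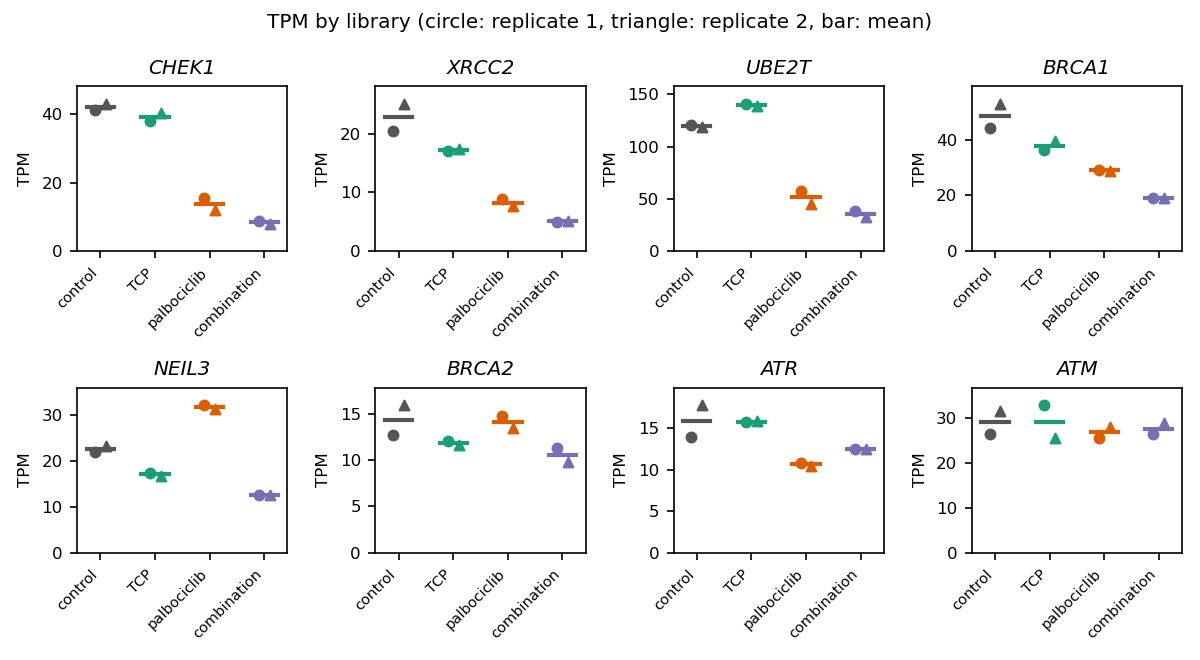
TPM of 8 genes in each library of the 4 groups, with the mean as a bar; each axis starts at 0. CHEK1, XRCC2, UBE2T and BRCA1 step down from control to palbociclib to the combination, NEIL3 is highest with palbociclib at 32.0 and 31.2 TPM, and ATM overlaps in all groups.

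Among the end-joining genes, which seal breaks without a template, the Ku subunits were the most abundant of all 43. XRCC6 (Ku70) was at 394 and 439 TPM in control, 401 and 449 with TCP, 277 and 274 with palbociclib and 249 and 258 with the combination. XRCC5 (Ku80) was at 249 and 258, 253 and 258, 173 and 163 and 159.6 and 157 TPM in the same order of groups. Both were lower with palbociclib, at -0.59 (SE 0.084, adjusted p = 0.00176) for XRCC6 and -0.59 (SE 0.066, adjusted p = 0.000666) for XRCC5. The combination gave -0.71 (SE 0.084, adjusted p = 0.000559) and -0.68 (SE 0.066, adjusted p = 0.00025), and its difference from palbociclib alone did not pass for either gene, with intervals of -0.32 to 0.080 and -0.24 to 0.072.

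PRKDC, the kinase that Ku recruits, was at 132 and 223 TPM in control, 151 and 190.5 with TCP, 99.9 and 126 with palbociclib and 89.5 and 108 with the combination. The control libraries differed more from each other than those of any other member, by 0.76 on the log2 scale, and replicate 2 was higher in all 4 groups. The decrease did not pass with palbociclib, -0.61 (SE 0.26, adjusted p = 0.0921), and passed with the combination, -0.80 (SE 0.26, adjusted p = 0.0347). The call of PRKDC for the combination held in 10 of 16 other settings, and its log2 fold change ran from -1.17 without control replicate 1 to -0.42 without control replicate 2. With the replicate number as a block, the adjusted p of PRKDC was 0.00636 and 0.00174. POLQ, the polymerase of end joining at short homologies, was lower with log2 fold changes of -0.57 and -1.06.

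PARP1, which marks single-strand breaks, was at 135 and 155 TPM in control, 138 and 151 with TCP, 68.1 and 58.1 with palbociclib and 60.4 and 57.5 with the combination. Its decrease, -1.19 (SE 0.11, adjusted p = 0.000338) with palbociclib and -1.28 (SE 0.11, adjusted p = 0.000144) with the combination, left the 2 treatments overlapping. MSH6, a protein of mismatch repair, was lower with log2 fold changes of -0.60 and -1.02.

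NEIL3, a DNA glycosylase that also opens crosslinks at forks, at chr4:178231028-178284090 (GRCh37), was the exception of the list. It was at 21.9 and 23.2 TPM in control, 17.3 and 16.7 with TCP, 32.04 and 31.2 with palbociclib and 12.5 and 12.5 with the combination. Palbociclib libraries lay above control, TCP libraries below it, and combination libraries lowest of all, with no overlap between any groups. NEIL3 rose with palbociclib, with a log2 fold change of 0.47 (SE 0.082, adjusted p = 0.004), and fell with the combination, at -0.80 (SE 0.082, adjusted p = 0.000308). Both calls held under all 16 other settings of the test, and the increase ranged from 0.43 to 0.64 over them. Palbociclib replicate 2, with NEIL3 at 31.2 TPM beside 32.04 in replicate 1, had the high stromal markers, and their part was not tested.

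Adding TCP to palbociclib lowered 9 of the 43 genes below their level with palbociclib alone, against 1.44% of all genes tested. It raised none, where 2.05% of all genes were higher. The 9 were BRCA1, BARD1, RAD51AP1, FANCD2, FANCI, BRIP1, DNA2, CHEK1 and NEIL3. Of the 43 genes, 34 had both combination libraries below both palbociclib libraries, against 37.2% of all genes. The median log2 difference was -0.42 for the list and -0.07 over all genes. NEIL3 had the largest difference, -1.27 (SE 0.082, adjusted p = 0.00153), and was the 1 gene of the 43 that was DEG in this comparison (0.0424% of all genes). The next were BRIP1, -0.73 (SE 0.12, adjusted p = 0.0259), FANCD2, -0.72 (SE 0.11, adjusted p = 0.0235), and RAD51AP1, -0.65 (SE 0.12, adjusted p = 0.0412).

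The other 5 differences between the combination and palbociclib were -0.64 for BARD1, -0.64 for CHEK1, -0.61 for DNA2, -0.59 for BRCA1 and -0.45 for FANCI, with adjusted p from 0.0207 to 0.0462. Over 16 other settings, FANCI passed in 3, CHEK1 in 4, RAD51AP1 in 5, DNA2 and BRIP1 in 8, BRCA1 and BARD1 in 9 and FANCD2 in 11. UBE2T and FANCG did not pass at -0.52 and -0.52, and 7 of the 8 Fanconi core genes had both combination libraries below both palbociclib libraries. Differences close to 0 were found, among others, for PALB2 (-0.026, interval -0.25 to 0.19), RBBP8 (-0.046, interval -0.29 to 0.20) and PARP1 (-0.092, interval -0.35 to 0.16). ATM differed by 0.042, XRCC5 by -0.084, RAD51C by -0.089 and RAD50 by -0.096. Of the proliferation markers, 4 of 18 were lower in the combination than with palbociclib, with a median of -0.45.

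The size of this set rested on the libraries and on the test. With a control, palbociclib or combination replicate left out, most of the 9 calls were lost, and fewer of all genes passed as well. The median difference of the list was then -0.41 without palbociclib replicate 2 (-0.08 over all genes) and -0.36 without palbociclib replicate 1 (-0.06). It was -0.38 without combination replicate 1 (-0.08) and -0.42 without combination replicate 2 (-0.07). Leaving out a control replicate left it at -0.42. NEIL3 differed by -1.33 to -1.21 over the 16 other settings. With the replicate number as a block 17 genes were lower, with XRCC2, RAD54L, FANCE, UBE2T, EXO1, BLM, POLQ and MSH6 beside the 9, against 5.08% of all genes.

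**Figure D4:**
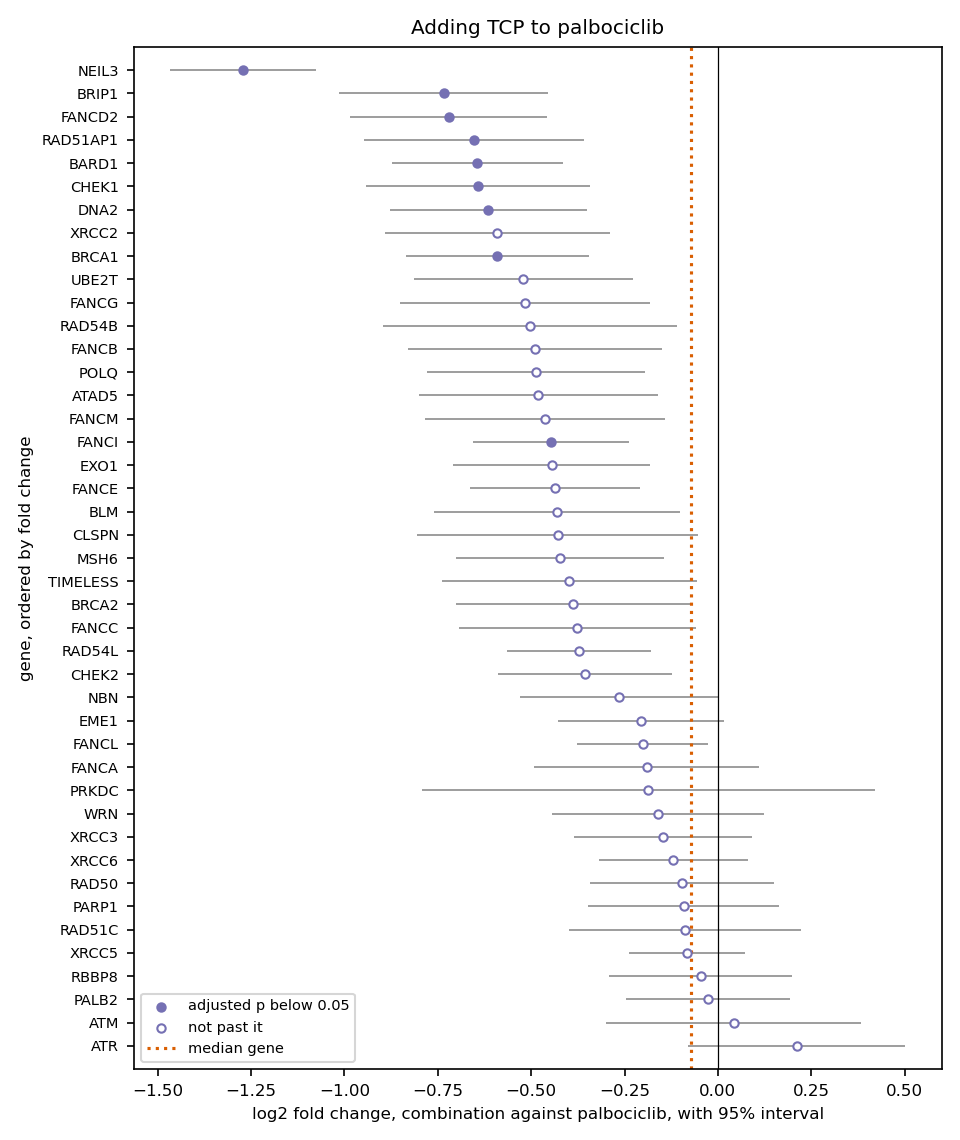
Log2 fold change of the combination against palbociclib for the 43 genes, ordered, with 95% intervals; filled points passed an adjusted p of 0.05 and the dotted line is the median of all genes tested, -0.07. NEIL3 stands apart at -1.27, and ATM and ATR are the 2 points right of 0.

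TCP alone changed none of the 43 genes by the test, where 0.141% of all genes were lower and 0.29% higher. Limma gave an unadjusted p below 0.05 for 4 of them, BRCA1, XRCC2, FANCE and NEIL3, and for 1241 of the 14151 genes, so the share among the 43 was near that of all genes. The smallest adjusted p of a member was 0.158, for NEIL3, with a log2 fold change of -0.39 (interval -0.58 to -0.19). BRCA1 with TCP was at 77.8% of control, and XRCC2 at 75.5%. Both TCP libraries lay below both control libraries for 27 of the 43 genes, against 22.3% of all genes, and the median log2 fold change was -0.15 for the list and -0.04 for all genes. For the most abundant genes, XRCC6, XRCC5, PRKDC and PARP1, TCP and control libraries overlapped.

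Against TCP alone, the combination lowered 40 of the 43 genes (33.8% of all genes), 18 of them DEG (6.7% of all genes). The 3 that did not pass were ATM, ATR and BRCA2, with ATR at an adjusted p of 0.0674, or 0.0487 with the replicate number as a block. NBN, NEIL3, PALB2, PRKDC and RAD50 passed and were lost under 1 or more other settings. UBE2T, at -1.96 (SE 0.12, adjusted p = 6.62e-05), and CHEK1, at -2.09 (SE 0.13, adjusted p = 5.82e-05), were farthest below TCP. The decrease of NEIL3 against TCP was smaller, -0.41 (SE 0.082, adjusted p = 0.00566).

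Whether TCP acted differently with palbociclib than without it was tested as an interaction, the difference between the 2 TCP effects. It passed for none of the 43 genes and for none of the 14151 genes in limma, with an unadjusted p below 0.05 for 904 of all genes and for 8 of the 43. These 8 were BARD1, RAD51AP1, UBE2T, FANCD2, BRIP1, DNA2, CHEK1 and NEIL3, each with a negative interaction. For NEIL3 it was -0.88 (SE 0.12, adjusted p = 0.193), with an interval of -1.16 to -0.61. UBE2T had -0.75 (SE 0.18, adjusted p = 0.453), since its TCP libraries were above control and its combination libraries below palbociclib. An effect seen with palbociclib and not without it is therefore not shown to differ between them.

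The ratio of 2 genes within a library does not change when the whole library is multiplied by a factor, and 5 pairs were formed after the values had been seen. The TPM of ATR divided by that of CHEK1 was 0.338 and 0.411 in control, 0.412 and 0.392 with TCP, 0.692 and 0.860 with palbociclib, and 1.39 and 1.55 with the combination. ATR thus went from below CHEK1 to above it, and only control and TCP overlapped. For ATM over CHEK2 the ratio was 0.613 and 0.763 in control and 1.13 and 1.27 with the combination. TCP, at 0.895 and 0.640, overlapped both control and palbociclib, at 0.798 and 1.02, and the combination lay above all other libraries. With 2 libraries a group, an exact permutation test cannot go below a two-sided p of 0.333, and none was run on the ratios.

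The BRCA1 to BARD1 ratio was 2.10 and 2.44 in control, 1.83 and 2.06 with TCP, 2.62 and 2.80 with palbociclib, and 2.77 and 3.07 with the combination. FANCD2 over FANCI was 0.481 and 0.485 in control, 0.505 and 0.456 with TCP, 0.479 and 0.382 with palbociclib, and 0.358 and 0.330 with the combination. For the Ku pair, XRCC5 over XRCC6 was 0.631 and 0.588 in control and 0.640 and 0.607 with the combination, and all 4 groups overlapped.

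**Figure D5:**
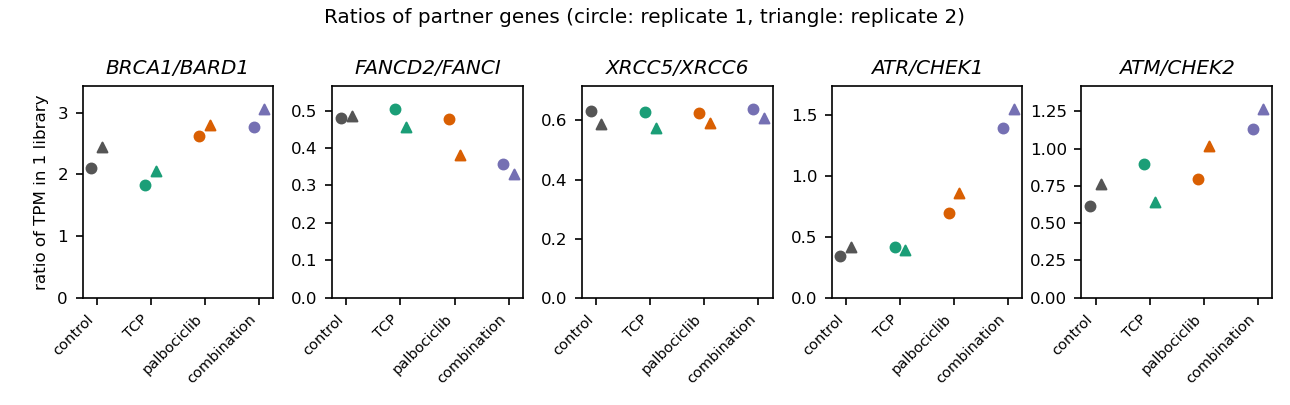
Ratio of the TPM of 2 partner genes within each library, for 5 pairs, with each axis starting at 0. ATR over CHEK1 climbs from 0.338 and 0.411 in control to 1.39 and 1.55 in the combination, and XRCC5 over XRCC6 overlaps in all 4 groups.

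The 18 genes not given library by library above were all lower with palbociclib and all lower with the combination. Their log2 fold changes ran from -1.02 (CLSPN) to -0.41 (NBN) with palbociclib and from -1.45 (CLSPN) to -0.59 (RAD50) with the combination. None could pass between the combination and palbociclib, because every gene past that test was given library by library. Their differences ran from -0.52 for FANCG to -0.09 for RAD51C. Genes with the smallest changes in the combination were also given above, so uniform decreases among these 18 follow in part from the choice.

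Other DNA repair genes, 69 of 70 listed, had medians nearer to that of all genes. Most belong to the same pathways, but genes of nucleotide excision repair, such as XPA, XPC and DDB1, were listed too. Palbociclib lowered 40 and raised 3 of the 69, where 30.2% of all genes were lower and 14.8% higher. The combination lowered 48 and raised 3, where 37.6% of all genes were lower and 15.9% higher. The medians were -0.35 and -0.53. The largest decreases were those of WEE1, the kinase that restrains CDK1 (-1.67), USP1, which removes ubiquitin from FANCD2 (-1.53), and LIG1, the replication ligase (-1.41). The 3 that rose with the combination were LIG4, the ligase of end joining, at 0.53 (SE 0.14, adjusted p = 0.0171), RPA2, of the protein that coats single strands, at 0.32 (SE 0.10, adjusted p = 0.0256), and DDB1, of a damage-sensing ligase, at 0.31 (SE 0.087, adjusted p = 0.0201). Against palbociclib, the combination lowered 1 of the 69, LIG1, at -0.73 (SE 0.11, adjusted p = 0.0217), a share near the 1.44% of all genes. TCP alone changed none of the 69 by the test, where 0.141% of all genes were lower and 0.29% higher.

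In the GRCh37 annotation, 27 of the 43 genes have an exon that overlaps another gene, 8 of them on the same strand and 24 on the opposite strand. The library kit keeps strand, and the strand setting of the counting is not given in the sources used here. For 7 genes, BRCA1, RAD51AP1, FANCD2, RBBP8, CHEK2, XRCC6 and PARP1, the annotation holds pseudogenes named after them, with which reads may have been exchanged.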

How the data were processed

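RNA-seq of MV4-11 cells was analysed in 8 libraries, 2 for each of 4 groups taken from the labels. The deposited values are TPM. The authors aligned to hg19 by subread-align, took gene counts with featureCounts (1.6.4 per the labels) and turned these into TPM; gene annotation, gene lengths and strand setting are not given in the sources used here. Depth is unknown, so no interval needs read counts.

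From these, log2(TPM + 1) was fitted with limma 3.58.1 (R 4.3.3), 1 coefficient per group over all 8 libraries, with a variance trend. The test covered 14151 genes that reached 1 TPM in 2 or more libraries, all 43 members among them, with Benjamini-Hochberg adjustment over all of them. Fold changes are on this scale, which understates changes of low genes. The study's test needs counts, so limma stood in for it. The script was tested on simulated data. Libraries with the same number deviated together from the means of their groups (correlation across genes 0.169 to 0.491 in the 6 pairs of groups), a hint of pairing from the data only. The p-values given are from the fit without the replicate number, and those of the fit with it as a block are named as such. The members and lists were chosen with earlier results of these data known. Values in every library are given for the 8 largest changes past the test under palbociclib and the combination, members past the test between combination and palbociclib, the 5 smallest changes among genes of at least 5 TPM, the 3 most abundant genes and 7 named regulators. Alternatives were another pseudocount, filters, scalings, the replicate block, no variance trend, only the groups compared, and each replicate left out. Coordinates of genes are from a GENCODE annotation on GRCh37, and promoter sequences from RefSeq on GRCh38.p14. The 30-base E2F sites that reach past the start site were chosen for printing after the matches were seen. Some genes of the wider list of pathway genes are not reported here.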

Additional observations from a re-analysis of the deposited data

Results flagged for a closer look

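NEIL3 was picked out because the effect of palbociclib differed with and without TCP. Its interaction was -0.88 on the log2 scale (unadjusted p = 0.00013, adjusted p = 0.193 in limma over all 14151 genes), so the difference did not pass the correction. With the replicate number as a block the adjusted p was 0.0873. Palbociclib libraries were at 32.04 and 31.2 TPM and control libraries at 21.9 and 23.2, whereas combination libraries were at 12.5 and 12.5 and TCP libraries at 17.3 and 16.7. NEIL3 is one of 43 genes looked at.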

How the results depend on the processing

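Under 16 other settings of the test, 3922 of 4079 recomputed values of single genes kept their direction and their side of the threshold, 139 fell below it, 18 passed it, and none past the threshold changed sign. Of the counts, palbociclib DEG went from 10 to 5 with quantile normalization and to 5 with median-ratio scaling, and leaving out 1 replicate at a time gave 6 to 12. The number lowered in the combination against palbociclib went from 9 to 3 with no filter on low values, to 5 with median-ratio scaling, to 3 when only the groups compared were fitted and to 17 with the replicate block; leaving out 1 replicate gave 1 to 7, and its DEG count 0 to 1. The cause of these shifts was not tested. Where a group is left with 1 library, that library is assumed to vary like the others. The replicate block also brought PRKDC past the threshold for palbociclib (adjusted p = 0.00636) and ATR for the combination against control (0.0495) and against TCP (0.0487), and ended no call. The share of higher genes among all calls moved from 32.8% to 45.4% under quantile normalization for palbociclib and from 29.8% to 44.3% for the combination. Unknown depth and 2 libraries a group limit what could be detected.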
